A study of Mus musculus with 16 samples.

Results

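The 7 mouse genes that encode the subunits of the N-methyl-D-aspartate (NMDA) receptor, *Grin1*, *Grin2a*, *Grin2b*, *Grin2c*, *Grin2d*, *Grin3a* and *Grin3b*, were followed through primary cortical neuron cultures exposed to oxygen-glucose deprivation (OGD), an in vitro model of brain ischemia. They were found by gene symbol among the 53857 genes of the deposited expression table. All cultures came from the cortex of wild-type (wt) mouse embryos at embryonic day 15 and were seeded in medium with glutamate, then fed without it. On day in vitro (DIV) 8 they received 10 μM tianeptine (TIA), an antidepressant, or vehicle (VEH), and 24 h later 3 h of OGD or sham. RNA was taken after 6 h of reoxygenation. The groups were CONTROL-VEH (cultures 1 to 4), CONTROL-TIA (cultures 5 to 8), OGD-VEH (cultures 9 to 12) and OGD-TIA (cultures 13 to 16), with n = 4 in each. The sample labels call the vehicle cultures untreated, and vehicle was DMSO by the study's methods. The methods name the cultures of a group biological replicates, but the labels do not say whether they were separate preparations, so the p-values below measure the spread between these cultures.

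NMDA receptors are ion channels of 4 subunits that open when glutamate and a co-agonist, glycine or D-serine, are bound and the membrane is depolarized, and they let calcium into the neuron. *Grin1* encodes GluN1, the obligatory subunit that binds the co-agonist. *Grin2a* to *Grin2d* encode the GluN2 subunits, which bind glutamate and set the kinetics of the channel. *Grin3a* and *Grin3b* encode the GluN3 subunits, which bind glycine and lower calcium permeability. Excess calcium entry through NMDA receptors is a known route to neuronal death in ischemia. In cortex, GluN2B prevails early in development and GluN2A gains later.

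*Grin1* lies on chromosome 2 of the GRCm38 build from 25291181 to 25319187 on the minus strand, and 14 of its isoforms are in the table, of which 8 are annotated as coding. The coding isoforms are the 8 combinations of 3 choices of splicing. The N1 cassette is a coding exon of 63 bases (21 codons) for a part of the extracellular domain, and the C1 cassette is a coding exon of 111 bases (37 codons) for the cytoplasmic tail. The third choice is at the start of the last exon, where 356 bases (chromosome 2 from 25292129 to 25292484) are kept in the C2 form or left out in the C2' form of the tail. N1 is in Grin1-203, Grin1-204, Grin1-207 and Grin1-208. C1 is in Grin1-201, Grin1-204, Grin1-206 and Grin1-208, and C2 in Grin1-201 to Grin1-204. The cassettes are shown because the splice forms compared below differ in them, 5' to 3' on the minus strand, from the GENCODE M21 transcripts of GRCm38 and with no letters in capitals:
N1, chr2:25311343-25311405: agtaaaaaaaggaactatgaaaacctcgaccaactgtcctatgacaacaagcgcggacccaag
C1, chr2:25294438-25294548: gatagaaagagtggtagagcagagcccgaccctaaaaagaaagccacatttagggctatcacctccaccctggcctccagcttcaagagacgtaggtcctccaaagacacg

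Expression is given as FPKM (fragments per kilobase of transcript, scaled to library size), which the deposited table lists for each isoform and which was summed over the isoforms of a gene. With vehicle and without OGD, *Grin1* was highest, at 199.5 ± 6.00 FPKM (SD, n = 4). *Grin2b* followed at 33.8 ± 3.28 FPKM and *Grin3a* at 9.12 ± 0.931 FPKM. *Grin2d* had 2.89 ± 0.594 FPKM and *Grin2a* 2.46 ± 0.171 FPKM, and the cultures of these 2 genes overlapped. *Grin2c*, a subunit known mainly from cerebellum, had 0.342 ± 0.0655 FPKM, and *Grin3b*, known mainly from motor neurons, 0.0805 ± 0.0294 FPKM. All other neighbours in this order were separated in every culture of the group. By FPKM summed over all isoforms, *Grin1*, *Grin2b* and *Grin3a* kept the first 3 places without overlap in all 4 groups. In OGD-VEH and OGD-TIA *Grin2a* overlapped *Grin2d* and *Grin2c* overlapped *Grin3b*. The gap between *Grin1* and *Grin2b* was far narrower with coding isoforms only. In CONTROL-VEH *Grin1* then had 37.4 to 41.6 FPKM and *Grin2b* 30.7 to 38.02 FPKM, which overlapped. These sums also overlapped in OGD-VEH and OGD-TIA but not in CONTROL-TIA, and the *Grin1* mean stayed higher in each group. *Grin2c* and *Grin3b* were under the minimum mean of 0.5 FPKM that genes needed to be tested, so 5 of the 7 genes were tested. For the main *Grin3b* isoform of 3283 bases, 1 read is worth about 0.0169 FPKM at the lowest depth stated in the labels (18 M aligned reads, with 23 M the highest), so its values rest on few reads.

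**Figure D1:**
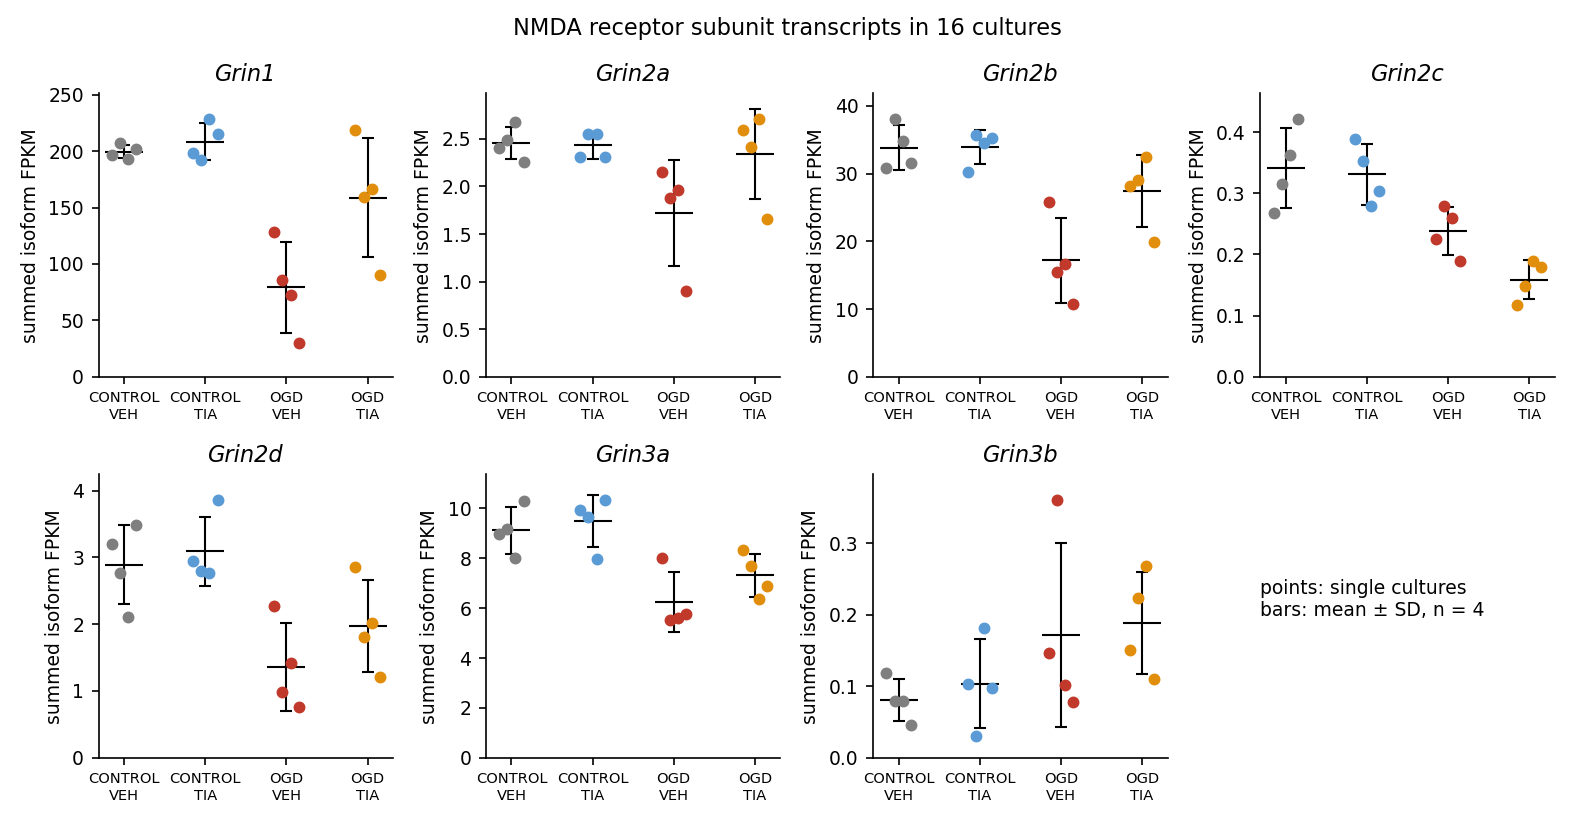
Summed isoform FPKM (y axis, linear from 0, a separate scale for each gene) of the 7 NMDA receptor genes in the 4 groups (x axis). Points are single cultures and bars the mean ± SD, n = 4. The *Grin1*, *Grin2a* and *Grin2b* values of all 4 OGD-VEH cultures lie below those of all 4 CONTROL-VEH cultures, while *Grin2c* and *Grin3b* stay under 0.5 FPKM in every culture.

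OGD without TIA was followed by lower *Grin1* and *Grin2b*. Both were called between OGD-VEH and CONTROL-VEH, where a call needs a Benjamini-Hochberg padj of at most 0.05 over all genes tested by limma together with a log2 fold change of 1 or more in size. Of all 16405 genes tested, 4.06% were called. *Grin1* had 196.2, 206.9, 193.4 and 201.8 FPKM in CONTROL-VEH cultures 1 to 4. In OGD-VEH cultures 9 to 12 it had 128.2, 85.5, 72.9 and 30.3 FPKM. The 2 groups did not overlap, and the OGD-VEH cultures were spread far more widely, with culture 9 nearest to the controls and culture 12 farthest. The log2 fold change was -1.51 (SE 0.37, padj = 0.0468 from limma).

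*Grin2b*, on chromosome 6 from 135713233 to 136173511, had 30.9, 38.02, 34.8 and 31.6 FPKM in CONTROL-VEH. In OGD-VEH it had 25.8, 15.5, 16.6 and 10.8 FPKM. Again no OGD-VEH culture reached a CONTROL-VEH culture, and culture 9 was the highest and culture 12 the lowest. The log2 fold change was -1.04 (SE 0.24, padj = 0.0436 from limma). Nearly all of it was 1 coding isoform, Grin2b-201, which held 98.3% of the summed FPKM of the gene over the 16 cultures. Grin2a-206 held 94.1% of *Grin2a*, Grin2d-201 86.4% of *Grin2d*, and Grin3a-201 and Grin3a-202 58.4 and 37.4% of *Grin3a*.

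Both calls stood close to their thresholds. Of the 8 fits that each left out 1 culture, only that without OGD-VEH 9 kept them, with log2 fold changes of -1.80 for *Grin1* (padj = 0.00853 from limma) and -1.25 for *Grin2b* (padj = 0.00418 from limma). That fit also called *Grin2d* (-1.38, padj = 0.0103 from limma). Without OGD-VEH 12 the log2 fold changes were -1.10 for *Grin1* (padj = 0.0536 from limma) and -0.84 for *Grin2b* (padj = 0.0664 from limma). Without any other single culture the padj was between 0.0740 and 0.118 for both genes by limma. Over all genes, 2185 of 16422 were called without OGD-VEH 9 and 71 of 16368 without OGD-VEH 12, and from 1 to 18 without any other single culture, against 666 with all 8 cultures.

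*Grin2d*, *Grin3a* and *Grin2a* had log2 fold changes below 0 that were not called. *Grin2d*, on chromosome 7 from 45831883 to 45878378, is known from interneurons in cortex. It had 3.20, 2.77, 2.11 and 3.48 FPKM in CONTROL-VEH against 2.27, 0.990, 1.42 and 0.765 FPKM in OGD-VEH, so culture 9 overlapped the controls (log2 fold change -1.12, SE 0.33, padj = 0.0616 from limma). *Grin3a*, on chromosome 4 from 49661611 to 49845744, had 8.99, 9.17, 8.03 and 10.3 FPKM against 8.03, 5.52, 5.61 and 5.76 FPKM, and again only culture 9 reached the controls (log2 fold change -0.55, SE 0.16, padj = 0.0603 from limma). *Grin2a*, on chromosome 16 from 9567898 to 9995560, had 2.41, 2.49, 2.67 and 2.26 FPKM in CONTROL-VEH. In OGD-VEH it had 2.15, 1.88, 1.96 and 0.899 FPKM, which does not overlap, with culture 12 far below the other three (log2 fold change -0.55, SE 0.27, padj = 0.185 from limma).

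Counted by unadjusted p, 4 of the 5 tested genes (not *Grin2a*) were lower with p under 0.05 by limma, as were 14.8% of all genes tested. The groups did not overlap, with OGD-VEH lower, for 3 of the 5 (*Grin1*, *Grin2a*, *Grin2b*) and for 9.92% of all genes tested. By exact permutation tests over the 70 ways to split 8 cultures, these 3 genes had p = 0.0286, the smallest that 4 cultures against 4 allow, which is 0.133 after Benjamini-Hochberg adjustment over 7 genes and 4 comparisons. For *Grin1* the separation was lost when 1 non-coding isoform, Grin1-210, was left out, as given below. The 2 genes under the filter were read from a limma fit without it. *Grin2c*, on chromosome 11 from 115249169 to 115267243, had 0.268, 0.315, 0.363 and 0.421 FPKM in CONTROL-VEH against 0.225, 0.279, 0.259 and 0.189 FPKM in OGD-VEH, a log2 fold change of -0.38 (padj = 0.672 from limma). *Grin3b*, on chromosome 10 from 79970715 to 79977190, had 0.046 to 0.118 FPKM in CONTROL-VEH against 0.078 to 0.360 FPKM in OGD-VEH (log2 fold change 0.50, padj = 0.852 from limma). Both genes overlapped between the groups.

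In cultures with TIA, none of the 5 tested genes was called between OGD-TIA and CONTROL-TIA, and 0% of all 16299 genes tested were, with 3184 of them at an unadjusted p under 0.05 by limma. *Grin1* had 198.8, 191.9, 228.3 and 215.2 FPKM in CONTROL-TIA cultures 5 to 8. In OGD-TIA cultures 13 to 16 it had 219.0, 159.7, 166.0 and 90.1 FPKM. Culture 13 was within the control range and culture 16 far below it (log2 fold change -0.46, SE 0.24, padj = 0.323 from limma).

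*Grin2b* had 30.2, 35.8, 34.5 and 35.2 FPKM in CONTROL-TIA and 28.2, 29.0, 32.5 and 19.9 FPKM in OGD-TIA, with culture 15 inside the control range and culture 16 lowest (log2 fold change -0.33, SE 0.15, padj = 0.281 from limma). *Grin2a* was almost level, with 2.31, 2.55, 2.56 and 2.31 FPKM against 2.59, 2.42, 2.71 and 1.66 FPKM (log2 fold change -0.07, SE 0.17, padj = 0.841 from limma). *Grin2d* had 2.94, 2.80, 2.77 and 3.86 FPKM against 2.86, 1.80, 2.02 and 1.20 FPKM (log2 fold change -0.67, SE 0.25, padj = 0.210 from limma). For all 3 genes culture 16 was the lowest of the OGD-TIA cultures.

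*Grin3a* differed in this, since culture 15 and not culture 16 was its lowest OGD-TIA culture. It had 9.95, 9.68, 7.99 and 10.3 FPKM in CONTROL-TIA and 8.34, 7.68, 6.36 and 6.89 FPKM in OGD-TIA (log2 fold change -0.37, SE 0.13, padj = 0.189 from limma). *Grin2d* and *Grin3a* were lower with an unadjusted p under 0.05 by limma, as were 7.9% of all genes tested. Of the 5 tested genes, 0 had groups that did not overlap, against 6.69% of all genes tested with OGD-TIA lower. *Grin2c*, which was not tested, had 0.279 to 0.389 FPKM in CONTROL-TIA and 0.118 to 0.189 FPKM in OGD-TIA without overlap (exact permutation p = 0.0286, adjusted p = 0.133).

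When the OGD effect was fitted over both arms with TIA as a covariate, *Grin1* (log2 fold change -0.98, SE 0.27, padj = 0.0137), *Grin2b* (-0.68, SE 0.17, padj = 0.00916), *Grin2d* (-0.89, SE 0.21, padj = 0.00775) and *Grin3a* (-0.46, SE 0.10, padj = 0.00469) were lower with a padj of at most 0.05 from limma. *Grin2a* was not (-0.31, SE 0.17, padj = 0.162). This share of 4 of 5 stands beside 13.4% of all 16370 genes tested that were lower at that padj. None of the 5 reached a log2 fold change of -1 as well, which with the padj was the rule for a call and was met by 4.76% of all genes in either direction. Without a filter on low values *Grin1* had a padj of 0.0546 from limma, and *Grin2c* one of 0.0200 with a log2 fold change of -0.56.

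No difference was detected between CONTROL-TIA and CONTROL-VEH. The log2 fold changes of the 5 tested genes ran from -0.01 for *Grin2a* to 0.10 for *Grin2d*, with SE between 0.07 and 0.18 (padj = 0.9995 for each from limma), and 0 of the 5 had an unadjusted p under 0.05. Of all genes tested in this comparison 0% were called, while 626 reached an unadjusted p under 0.05 by limma.

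After OGD, the TIA cultures had higher mean levels of the 5 tested genes than the vehicle cultures, but the difference was not called for any of them. *Grin2c*, which was not tested, was lower (0.159 ± 0.0323 against 0.238 ± 0.0396 FPKM, exact permutation p = 0.0571). It was largest for *Grin1*, with a log2 fold change of 1.11 between OGD-TIA and OGD-VEH (SE 0.44, padj = 0.552 from limma), and was 0.72 for *Grin2b* (SE 0.27, padj = 0.552). For *Grin2d*, *Grin2a* and *Grin3a* it was 0.55 (SE 0.37), 0.47 (SE 0.30) and 0.24 (SE 0.16). *Grin1* and *Grin2b* had an unadjusted p under 0.05 from limma (0.0362 and 0.0270), and 2.86% of all genes tested were higher in OGD-TIA at that level (1295 in either direction by limma), while 0% were called. For both genes OGD-TIA 16 lay within the range of the OGD-VEH cultures, and OGD-VEH 9 within that of the OGD-TIA cultures, so the groups overlapped (exact permutation p = 0.0571 for each, adjusted p = 0.133). With array quality weights, which count deviating cultures less, *Grin1* was called (1.15, padj = 0.0469 from limma), as were 402 of all 16407 genes.

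Whether OGD acted differently with TIA was tested as an interaction over all 16 cultures. The OGD effect with TIA minus that with vehicle was 1.05 on the log2 scale for *Grin1* (SE 0.48, unadjusted p = 0.0449, padj = 0.723 from limma) and 0.71 for *Grin2b* (SE 0.30, unadjusted p = 0.0301, padj = 0.723 from limma). It was 0.48 for *Grin2a*, 0.44 for *Grin2d* and 0.18 for *Grin3a*, with unadjusted p of 0.157 or more. Of all genes tested, 2.68% had a higher interaction at an unadjusted p under 0.05 (992 in either direction by limma) and 0% were called. *Grin1* and *Grin2b* were thus called in the vehicle arm and not in the TIA arm, but the difference between the arms did not pass the adjusted test.

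**Figure D2:**
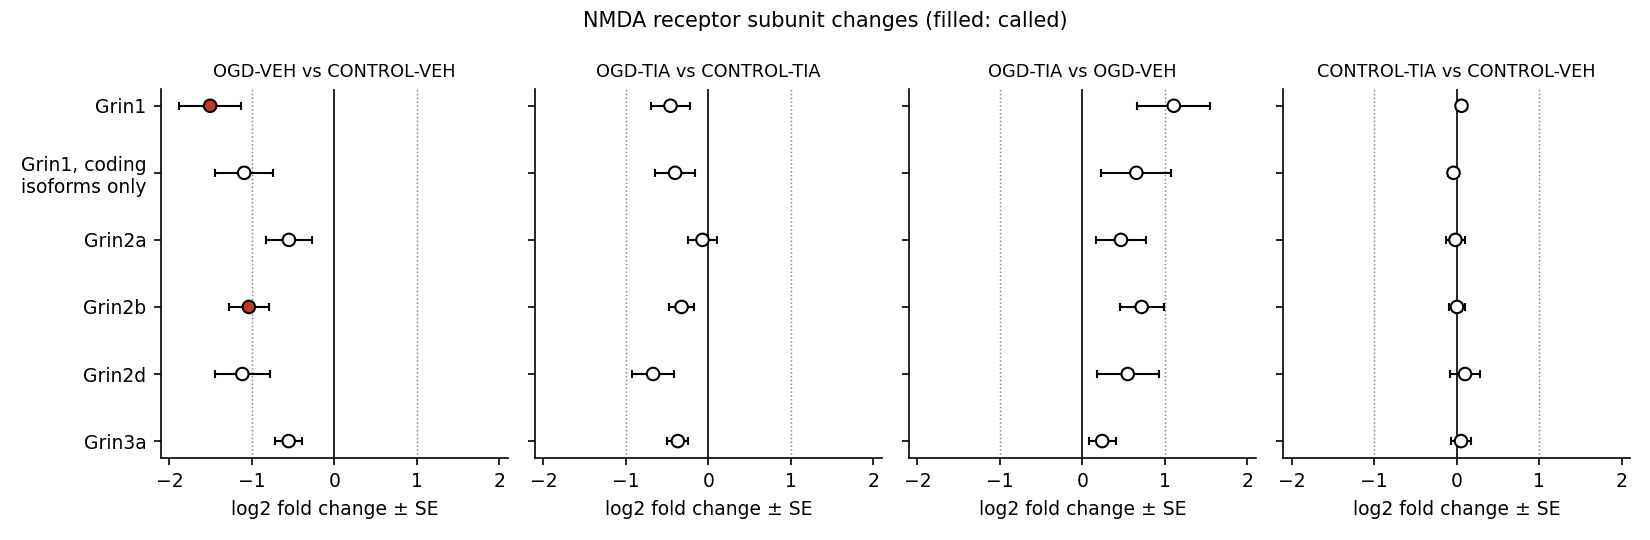
Log2 fold change (x axis) of the 5 tested genes, and of *Grin1* from its coding isoforms only, in 4 comparisons from limma. Points are estimates with their SE as bars, filled points were called, and dotted lines mark 1 and -1. Only *Grin1* and *Grin2b* are filled, both in OGD-VEH vs CONTROL-VEH, and with coding isoforms only *Grin1* is open at -1.09.

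Most of the *Grin1* value came from 2 short transcripts that do not encode the receptor. Grin1-209 (527 bases, 3 exons) held 40.9% and Grin1-210 (456 bases, 4 exons) 32.6% of the summed FPKM over the 16 cultures. All bases of both lie in exons of the coding isoforms, and no base of either is in no other isoform, so reads within an exon cannot tell them from receptor mRNA. Of their splice junctions, 1 of 2 in Grin1-209 and 2 of 3 in Grin1-210 are also in coding isoforms. Because FPKM divides by length, short isoforms weigh more than their reads. Weighted by length, the 6 non-coding isoforms held 35.0% of *Grin1* in CONTROL-VEH on average, against 80.5% of the FPKM.

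Of the 12 *Grin1* isoforms tested with vehicle, Grin1-210 had the log2 fold change farthest from 0. It had 78.9, 66.0, 65.9 and 59.5 FPKM in CONTROL-VEH against 0.114, 24.7, 7.68 and 1.47 FPKM in OGD-VEH. For this length 1 read is worth 0.0953 to 0.122 FPKM, so the value in culture 9 is about that of 1 read. In CONTROL-TIA it had 62.9 to 95.9 FPKM and in OGD-TIA 90.2, 49.3, 46.4 and 29.6 FPKM.

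The coding isoforms gave another picture of culture 9. Their sum was 37.8, 37.4, 38.8 and 41.6 FPKM in CONTROL-VEH against 36.8, 16.7, 18.8 and 9.34 FPKM in OGD-VEH. Culture 9 was thus just under the lowest control in coding *Grin1*, although its summed value of 128.2 FPKM was far below the 193.4 FPKM of the lowest control. With TIA the sum was 35.8 to 41.0 FPKM in CONTROL-TIA and 39.3, 30.6, 33.6 and 16.5 FPKM in OGD-TIA.

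With the coding isoforms only, *Grin1* had a log2 fold change of -1.09 between OGD-VEH and CONTROL-VEH (SE 0.35, padj = 0.0694 from limma) and was not called. Leaving out Grin1-210 alone gave the same log2 fold change (-1.09, SE 0.38, padj = 0.0862 from limma), while weighting isoforms by length kept the call (-1.23, SE 0.34, padj = 0.0368 from limma). Without Grin1-210 the 2 groups overlapped, since culture 9 had 128.1 FPKM against 117.4 to 142.2 FPKM in CONTROL-VEH (exact permutation p = 0.0857). With the coding isoforms only they did not overlap (exact permutation p = 0.0286). The difference between OGD-TIA and OGD-VEH was 0.65 with the coding isoforms only (SE 0.42, padj = 0.541 from limma). These ways of summing, apart from the weighting by length, were added with the values in view. Whether the non-coding values reflect separate transcripts or the assignment of shared reads was not tested.

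**Figure D3:**
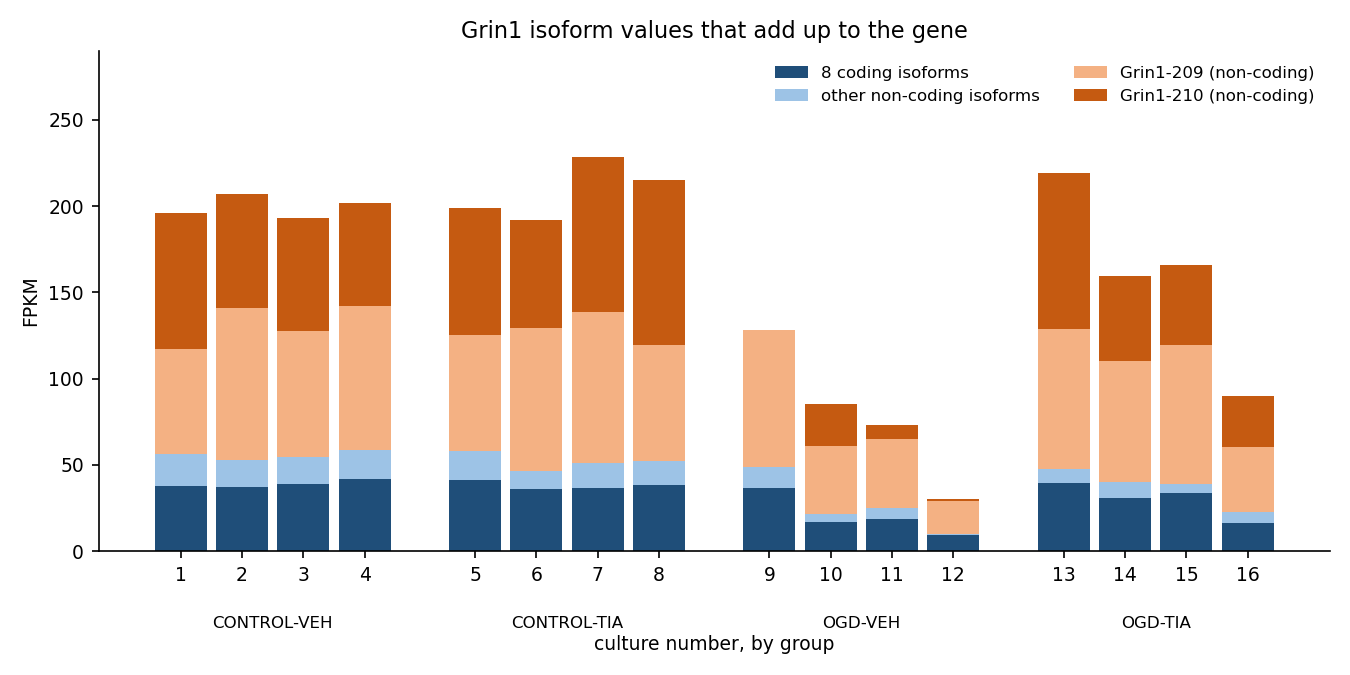
FPKM (y axis) of *Grin1* in each of the 16 cultures (x axis, by group), stacked from the 8 coding isoforms, 4 less abundant non-coding isoforms, Grin1-209 and Grin1-210. Grin1-210 is almost missing from culture 9 (0.114 FPKM), whose coding part (36.8 FPKM) is as tall as in the controls.

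Tested one by one, 0 *Grin1* isoforms were called in either OGD comparison (7 with vehicle and 1 with TIA had an unadjusted p under 0.05 by limma, as had 10124 and 5500 of all isoforms tested), and of all isoforms 0.141% (75 of 53087) were called with vehicle and 0.0305% (16 of 52476) with TIA. Grin1-210 had a log2 fold change of -4.57 with vehicle (SE 1.31, padj = 0.153 from limma). Grin1-201, the most abundant coding isoform, had one of -0.87 (SE 0.27, padj = 0.167 from limma) and Grin1-206 one of -1.99 (SE 0.92, padj = 0.287 from limma). Grin1-206 shows the unstable split between isoforms, with 11.1, 2.18, 5.84 and 0.325 FPKM in the 4 OGD-VEH cultures. The remaining coding isoforms, Grin1-202, Grin1-203, Grin1-204, Grin1-205, Grin1-207 and Grin1-208, had 5.60 FPKM or less in every culture, and the non-coding Grin1-211, Grin1-212 and Grin1-214 had group means of at most 1.05 FPKM. Grin1-213, the third non-coding isoform in size, had 14.7 to 15.8 FPKM in CONTROL-VEH against 0.469 to 10.9 FPKM in OGD-VEH (log2 fold change -2.09, padj = 0.228 from limma).

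As a share of summed *Grin1* FPKM, Grin1-210 went from 33.9 ± 4.58% (SD, n = 4) in CONTROL-VEH to 11.1 ± 12.6% in OGD-VEH, and Grin1-209 from 38.2 ± 5.16% to 56.1 ± 7.61% (exact permutation p = 0.0286 for each). After adjustment over 14 isoforms and 4 comparisons both p-values were 0.229. Weighted by length, the mean share of Grin1-210 was 12.7% and 3.80% and that of Grin1-209 16.4% and 19.8%. In OGD-TIA, Grin1-210 held 33.2 ± 5.69% and in CONTROL-TIA 38.4 ± 4.92% (exact permutation p = 0.229).

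The splice cassettes printed above showed no shift beyond the spread between cultures. N1 was in 18.2 ± 3.14% of the coding-isoform FPKM in CONTROL-VEH, in 15.5 ± 2.16% in OGD-VEH, in 13.7 ± 2.04% in CONTROL-TIA and in 14.3 ± 3.62% in OGD-TIA (SD, n = 4 each). C1 was in 83.6 ± 3.698%, 79.1 ± 7.62%, 78.9 ± 5.45% and 83.3 ± 5.93% in the same order. C2 was in 59.0 ± 4.68%, 74.4 ± 18.3%, 66.3 ± 11% and 62.9 ± 5.32%. In the 4 comparisons of each cassette the smallest exact permutation p was 0.114, and the smallest adjusted p over these 12 tests was 0.556. C2 was widest in OGD-VEH, with 55.9, 82.9, 63.0 and 95.9% in cultures 9 to 12.

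Among the GluN2 genes, *Grin2b* made up most of the transcript in every culture, with 82.0 to 87.2% of summed GluN2 FPKM. *Grin2a* went from 6.23 ± 0.465% in CONTROL-VEH to 8.48 ± 1.63% in OGD-VEH, and from 6.13 ± 0.410% in CONTROL-TIA to 7.34 ± 0.229% in OGD-TIA (SD, n = 4). The log2 ratio of *Grin2b* to *Grin2a* was 3.63, 3.88, 3.66 and 3.75 in CONTROL-VEH and 3.53, 2.97, 3.02 and 3.45 in OGD-VEH. With TIA it was 3.65, 3.76, 3.70 and 3.87 in CONTROL-TIA and 3.39, 3.53, 3.54 and 3.51 in OGD-TIA. In both arms every OGD culture had a lower ratio than every CONTROL culture.

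The ratio differed by -0.49 on the log2 scale with vehicle and by -0.25 with TIA (exact permutation p = 0.0286 for each, the smallest possible, and adjusted p = 0.137 over 6 ratios and 4 comparisons). It had this p and direction in both arms with each pseudocount and each way of summing isoforms tried. Between OGD-TIA and OGD-VEH the ratio differed by 0.25 (exact permutation p = 0.2). *Grin2d* held 5.24 to 9.24% and *Grin2c* 0.350 to 1.50% of GluN2 FPKM over all cultures, with no exact permutation p under 0.0571.

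The ratio of *Grin1* to summed GluN2 depended on how *Grin1* was summed. With all isoforms the log2 ratio was 2.34 ± 0.091 in CONTROL-VEH and 1.84 ± 0.417 in OGD-VEH (difference -0.50, exact permutation p = 0.0286, adjusted p = 0.137). With coding isoforms only the difference was -0.09 (exact permutation p = 0.657), and with isoforms weighted by length -0.20 (exact permutation p = 0.171).

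**Figure D4:**
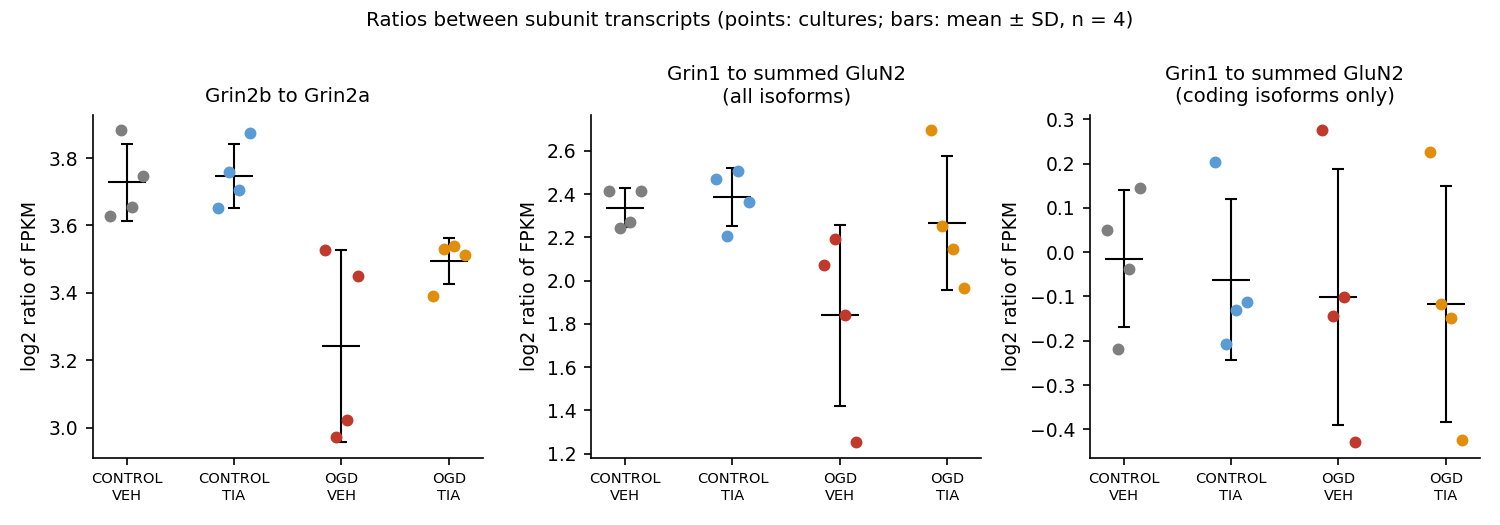
Log2 ratios of FPKM (y axis) in the 4 groups (x axis), for *Grin2b* to *Grin2a* and for *Grin1* to the sum of the 4 GluN2 genes, with all isoforms and with coding isoforms only. Points are cultures and bars the mean ± SD, n = 4. The *Grin2b* to *Grin2a* ratio is below all controls in all 8 OGD cultures, and the low *Grin1* ratio of OGD-VEH (-0.50) is not seen with coding isoforms (-0.09).

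Neuron markers moved with these genes. All 12 neuron markers (among them *Tubb3*, *Map2* and *Snap25*) had log2 fold changes below 0 in both OGD comparisons. Their median was -0.79 with vehicle and -0.33 with TIA, where the medians of all genes tested were 0.10 and 0.04. *Syt1*, a calcium sensor of synaptic vesicles, was called with vehicle (-1.52, padj = 0.0447 from limma), and *Rbfox3*, the gene for NeuN, had a padj of 0.0531 (-0.96). The summed neuron markers were 4220 to 4730 FPKM in CONTROL-VEH, 4170 to 4470 in CONTROL-TIA, 1810 to 3760 in OGD-VEH and 2420 to 4150 in OGD-TIA. In cultures of mixed cells, fewer neurons and less RNA per neuron cannot be told apart.

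Some markers of glia and progenitors rose. With vehicle, 393 of all 16405 genes tested were called higher. Of 8 oligodendrocyte lineage markers 7 were tested and 4 were called higher (*Cspg4*, *Olig1*, *Olig2* and *Sox10*, log2 fold change 1.06 to 1.46). *Mbp*, the myelin basic protein gene of the same list, was lower but under the fold threshold (-0.88, padj = 0.0493 from limma). The list's summed level was 177 to 213 FPKM in CONTROL-VEH, 159 to 194 in CONTROL-TIA, 244 to 676 in OGD-VEH and 225 to 438 in OGD-TIA. Of 6 progenitor markers 1 was called higher with vehicle (*Nes*, 1.71, padj = 0.0427 from limma), and *Sox2* was next by p (1.12). Of 8 astrocyte markers 0 were called with vehicle, and *Aldh1l1* and *Gja1* had log2 fold changes of 1.03 and 0.90. *Slc1a2* was the only one of the 8 below 0 (-0.45). Summed astrocyte markers were 753 to 1610 FPKM in CONTROL-VEH, 657 to 874 in CONTROL-TIA, 1010 to 2530 in OGD-VEH and 752 to 1930 in OGD-TIA. Of 8 microglia markers, 7 were below 0.5 FPKM in every culture, as were 3 of 6 endothelial and mural markers (*Cldn5*, *Kdr*, *Cdh5*). The tested members of the microglia, mural and fibroblast lists, *Aif1*, *Pdgfrb* and *Dcn*, had log2 fold changes of -0.40, 0.02 and -1.24, and 0 were called. Excitatory neuron markers were all 6 lower with vehicle at an unadjusted p under 0.05 by limma, with *Slc17a7* and *Tbr1* first. Of all 16405 genes tested, 2433 were lower and 3306 higher at that level. Of 6 inhibitory markers 2 were lower and 2 higher at that level, and *Slc32a1* and *Dlx2* had the smallest p (-0.88 and 1.09). Over both arms *Aldh1l1* (1.03), *Pdgfra* (1.19), *Olig2* (1.07), *Sox10* (1.17) and *Nes* (1.26) rose, and *Slc17a7* (-1.11), *Lhx6* (-1.26) and *Syt1* (-1.11) fell by limma. The part of cell makeup in the subunit changes was not tested beyond the values that follow.

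Set against the mean log2 level of the 12 neuron markers, *Grin1* stood 0.74 lower in OGD-VEH than in CONTROL-VEH (exact permutation p = 0.0286, adjusted p = 0.137 over 24 tests) and 0.70 higher in OGD-TIA than in OGD-VEH (the same p-values). With coding isoforms only these differences were -0.36 (exact permutation p = 0.114) and 0.29 (exact permutation p = 0.229). *Grin2b* stood 0.27 lower in OGD-VEH (exact permutation p = 0.0571) and differed by 0.02 in OGD-TIA (exact permutation p = 0.83). *Grin2a* was instead higher against the markers, by 0.22 with vehicle (exact permutation p = 0.0857) and by 0.27 with TIA (exact permutation p = 0.0286, adjusted p = 0.137). *Grin2d* differed by -0.35 and -0.33, and *Grin3a* by 0.21 and -0.02, with exact permutation p of at least 0.114.

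**Figure D5:**
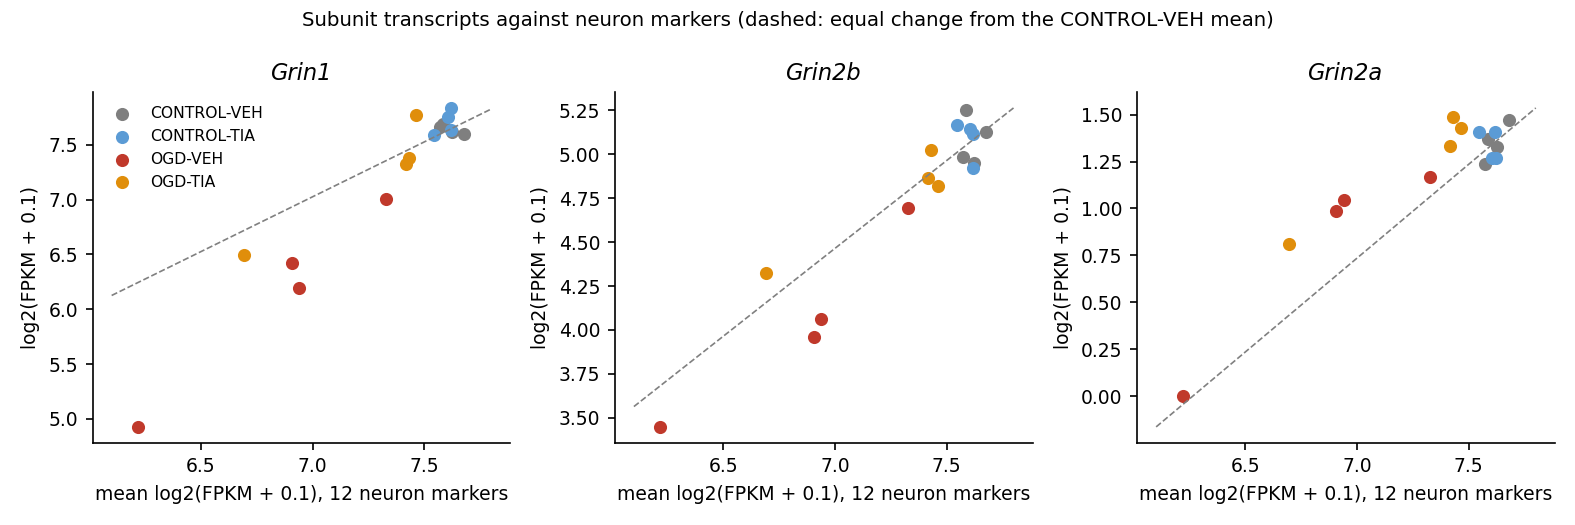
Log2(FPKM + 0.1) of *Grin1*, *Grin2b* and *Grin2a* (y axes) against the mean log2(FPKM + 0.1) of 12 neuron markers (x axis) in the 16 cultures, colored by group. The dashed line marks equal change from the CONTROL-VEH mean. *Grin1* of the 4 OGD-VEH cultures lies under the line, and *Grin2a* of all 8 OGD cultures above it.

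Levels of the subunit genes were related across the OGD cultures. These pool OGD-VEH and OGD-TIA, so the difference between the groups is part of each correlation, and the p-values treat the 8 cultures as exchangeable. Over the 8 OGD cultures, *Grin1* correlated on the log2 scale with *Grin2a* (Pearson r = 0.952, exact permutation p = 0.00208; Spearman rho = 0.881, p = 0.00724) and *Grin2b* (r = 0.95, p = 0.00174; rho = 0.905, p = 0.00456). It also correlated with *Grin2d* (r = 0.902, exact permutation p = 0.00268; rho = 0.857, p = 0.0107) and *Grin3a* (r = 0.713, exact permutation p = 0.0380; rho = 0.738, p = 0.0458). Adjusted over 5 relations, the p-values of r were 0.00335 for the first 3 genes and 0.0380 for *Grin3a*. Without the 2 cultures farthest from the *Grin1* median (OGD-VEH 12 and OGD-TIA 13), r was 0.855, 0.964, 0.762 and 0.64 for *Grin2a*, *Grin2b*, *Grin2d* and *Grin3a*. The mean of the neuron markers correlated with *Grin1* as closely (r = 0.955, exact permutation p = 0.00238; rho = 0.905, p = 0.00456; r = 0.891 without those 2 cultures). Each group alone had 4 cultures, too few for a correlation.

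Over all 16 cultures and 11025 genes whose mean reached 5 FPKM, the genes most like *Grin1* included *Chd5* (r = 0.985), *Gucy1b1* (0.982), *Cdkl2* (0.982) and *Stx1a* (0.981). *Stx1a* encodes a protein of synaptic vesicle fusion. Most like *Grin2b* were *Nrg3* (r = 0.987), *Cbln1* (0.986), *D430041D05Rik* (0.986), *Tmod2* (0.985) and *Doc2b* (0.983), and most like *Grin2a* were *Neurod6* (r = 0.987), *Ppp1r13b* (0.985), *St3gal1* (0.984), *Tmed8* (0.982) and *Kcnk9* (0.980). *Grin2b* and *Grin1* had r = 0.959 with each other, which placed *Grin1* at rank 140 among the genes most like *Grin2b*. All of these values share the contrast between OGD and CONTROL cultures.

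Of 18 genes for scaffold proteins that hold the receptor at the synapse, 3 were called lower with vehicle and 0 higher. Of all 16405 genes tested, 273 were called lower and 393 higher. The median log2 fold change of the 18 was -0.69. The 3 called genes were *Dlgap3* (-1.85, padj = 0.0283 from limma), *Shank1* (-1.15, padj = 0.0369), both of the postsynaptic density, and *Actn2* (-1.13, padj = 0.0470), an actinin that binds GluN1. *Ywhaz*, a 14-3-3 protein, had the second smallest p of the list after *Dlgap3* but was under the fold threshold (-0.91, padj = 0.0283 from limma). With TIA the median was -0.29 and 0 were called, as were 0 of all 16299 genes tested there. Over both arms *Dlgap3* and *Dlg2* fell, the latter encoding PSD-93 (-1.003, padj = 0.0209 from limma).

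Of 25 genes of calcium signaling downstream of the receptor, 4 were called lower with vehicle and 0 higher, with a median of -0.73. Of all 16405 genes tested, 273 were called lower and 393 higher. The 4 called genes of the list encode the kinases *Camk2a* (-1.88), *Camk2b* (-1.18) and *Camk4* (-1.15) and the neuronal nitric oxide synthase *Nos1* (-1.25), each with padj between 0.0395 and 0.04997 from limma. *Camk2g*, a further kinase subunit of this family, had the smallest p of the list, with a log2 fold change of -0.74 that was under the fold threshold. With TIA the median was -0.30 and 0 were called, as were 0 of all 16299 genes tested there. *Gria1*, which encodes an AMPA receptor subunit, was the only one of 11 AMPA, kainate and delta receptor genes called with vehicle (-1.39, padj = 0.0403 from limma). *Grid1* had the smallest p of that list but was under the fold threshold (-0.70, padj = 0.0339 from limma). The median of these 11 was -0.31.

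Genes for transport and turnover of the receptor (14 genes) and for kinases that phosphorylate it (12 genes) had 0 called with vehicle, with medians of -0.30 and -0.23. The called share over all 16405 genes tested was 4.06%, so 0 in lists this short does not set them apart. *Rab11a* and *Lin7c* had log2 fold changes of -0.36 and -0.39 (padj = 0.0386 and 0.0495 from limma). *Cdk5r1* and *Prkcb*, the activator of Cdk5 and a protein kinase C, had -0.73 and -0.55 (padj = 0.0359 and 0.04775 from limma). All of these were under the fold threshold. Of 10 tested genes of co-agonist supply 0 were called with vehicle by limma, beside the same 4.06% of all genes tested. An unadjusted p under 0.05 was found for 2 of the 10, and for 5739 of all 16405 genes tested. Log2 fold changes were below 0 for 4, among them *Srr*, which makes D-serine (-0.37, padj = 0.155 from limma, chosen after its value was seen). The median of the 10 was 0.30. *Psat1*, of serine synthesis, had a log2 fold change of 0.85 (padj = 0.0450 from limma, under the fold threshold), and *Shmt1*, which interconverts serine and glycine, rose over both arms (1.16, padj = 0.0171 from limma).

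Of 14 transcription factors known to act on NMDA receptor genes, 1 was called lower with vehicle, *Mef2c* (-1.90, padj = 0.0369 from limma), and 1 higher, *Sp1* (1.07, padj = 0.0285 from limma). Over all 16405 genes tested, 273 were called lower and 393 higher. *Mef2c* had 478.6 ± 35.5 FPKM in CONTROL-VEH against 144.7 ± 67.4 FPKM in OGD-VEH, and 493.3 ± 41.0 and 343.7 ± 101 FPKM with TIA (SD, n = 4). The median of the 14 was 0.10, that of all genes, and 5 of them were below 0. *Rest*, chosen after its value was seen, was not called. Its log2 fold change was 0.85 with vehicle and 0.51 with TIA (padj = 0.0562 and 0.189 from limma). Of 12 tested genes that synaptic activity induces, 5 were called higher with vehicle, as were 393 of all 16405 genes tested. The 5 were *Atf3* (2.54), *Fos* (2.12), *Gadd45b* (1.93), *Serpinb2* (1.76) and *Btg2* (1.27), each with padj between 0.0369 and 0.0469 from limma. *Serpinb2* stayed at 1.12 FPKM or less in every culture. These genes also respond to stress. Of the 12, 3 had log2 fold changes below 0 with vehicle, *Inhba* (-0.91), *Bdnf* (-0.35) and *Npas4* (-0.29). With TIA 0 of 11 tested were called (*Serpinb2* was under the filter), as were 0 of all 16299 genes tested. *Atf3* and *Fos* had log2 fold changes of 1.27 and 0.87 with TIA. There 5 of the 11 were below 0, and *Npas4* had the smallest p of the list (-0.58, padj = 0.113 from limma).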

How the data were processed

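Expression was analysed in 16 cultures of 4 groups, which the sample titles name. The authors had stranded mRNA libraries sequenced by a provider (50-base single-end reads), who aligned them with STAR to GRCm38 (Ensembl release 92), and estimated isoform expression with eXpress. The deposited values are FPKM per isoform, scaled by TMM as the file's name says. No read counts were used, so depth is known only from the labels (18 to 23 M aligned reads per culture), no counting intervals were computed, and DESeq2, which the study applied to counts, was not run.

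Of 135276 lines, 74 without an identifier were left out. Of 135202 isoforms, 99.89% were found in GENCODE M21 (GRCm38), which gave symbols, types and positions. Because eXpress shares reads between isoforms by probability, values of overlapping isoforms are uncertain. No 2 cultures of a group held the same value for more than 2.89% of 53200 expressed isoforms.

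Isoform FPKM were summed per gene, 0.1 was added and the log2 taken, so fold changes of low genes are understated. Genes averaging 0.5 FPKM or more over the cultures compared were tested with limma 3.58.1 in R 4.3.3 (empirical Bayes with trend, Benjamini-Hochberg over all genes). The procedure was tested on simulated data. Ratios, shares and single values were compared by two-sided exact permutation tests (70 assignments). Other steps ran in Python 3.11.15 (scipy 1.17.1, pandas 2.3.3, numpy 2.4.6). The 7 genes and the gene lists were chosen with earlier results of these data known. Genes were named if they were among the 7, were called in any comparison or had one of the 2 smallest p-values of their list in OGD-VEH vs CONTROL-VEH, or were among the 5 most like *Grin1*, *Grin2a* or *Grin2b*. A few other listed genes are named to show what a list holds or lacks. Some genes that this rule names are not reported here. The splice cassettes and the sums over coding isoforms or without Grin1-210 were added after the values were seen. Alternatives were other pseudocounts, filters, scalings, weights and sums, a fit of all cultures, and leaving out each culture.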

Additional observations from a re-analysis of the deposited data

Results flagged for a closer look

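In groups of 4, a culture was singled out where its gap to the nearest other culture passed Dixon's critical value as a share of the group's range. Of 120 groups examined, 15 had one, where chance gives about 5%. These values were not independent, since several share a gene or culture.

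*Grin3a* of OGD-VEH 9 was 8.03 FPKM (others 5.52 to 5.76). The same culture stood apart in 3 low *Grin1* isoforms, with 2.46 FPKM of Grin1-205 (others 0 to 0.330), 0.865 FPKM of Grin1-207 (others 0 to 0.092) and 0.824 FPKM of Grin1-212 (others 0 to 0.130). OGD-TIA 13 stood apart in GluN2 makeup, with a log2 ratio of *Grin2b* to *Grin2a* of 3.39 (others 3.51 to 3.54). Its *Grin2a*, *Grin2b* and *Grin2d* shares of GluN2 FPKM were 7.68, 83.5 and 8.46%, against 7.20 to 7.24, 86.8 to 86.9 and 5.24 to 5.4% in the other three.

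CONTROL-TIA 8 had 3.86 FPKM of *Grin2d* (others 2.77 to 2.94) and 1.69 FPKM of Grin1-204 (others 3.05 to 3.17). CONTROL-VEH 2 had 1.49 FPKM of Grin1-208 (others 2.41 to 2.55). OGD-VEH 12 had 0.192 FPKM of Grin1-211 (others 0.014 to 0.032), and OGD-TIA 16 had 1.95 FPKM of Grin1-212 (others 0.114 to 0.383). The C1 cassette was in 78.1% of coding *Grin1* in CONTROL-VEH 3 (others 85.2 to 85.8%) and in 67.8% in OGD-VEH 10 (others 81.5 to 83.7%).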

How the results depend on the processing

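No paired analysis was possible because the cultures are numbered 1 to 16 and the groups share no numbers. Of the 5 tested genes, the 2 called between OGD-VEH and CONTROL-VEH became 1 with a pseudocount of 1, with coding isoforms only and without Grin1-210, and 0 without a filter on low values, and ranged from 0 to 3 when 1 culture was left out. Over all genes, the 666 calls became 6 of 53857 without the filter and 1 to 2185 when 1 culture was left out. Array quality weights gave 1 call between OGD-TIA and OGD-VEH (*Grin1*, 1.15, padj = 0.0469 from limma), where 402 of 16407 genes were called against 0. Between OGD-TIA and CONTROL-TIA, the 0 calls over all genes became 80 with array weights, 65 weighted by length and 17 without OGD-TIA 16. None of the 5 tested genes was called there in any of the 18 alternatives. Over both arms, median-ratio scaling gave 1 call (*Grin1*, -1.05), and leaving out a culture 0 to 2. The cause of these shifts was not tested. *Grin2d* was called with vehicle under array weights (-1.09), weighting by length (-1.07) and a fit of all 16 cultures (-1.12), which called 1930, 1118 and 1390 genes.

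Directions turned for several differences that were not called, of which the log2 ratio of *Grin1* to GluN2 between OGD-TIA and OGD-VEH (0.43) and *Grin2d* against neuron markers with vehicle (-0.35) were the farthest from 0. For *Grin1* between CONTROL-TIA and CONTROL-VEH the log2 fold change was -0.0012 weighted by length, -0.036 with coding isoforms and -0.042 without Grin1-210. *Grin2a* between OGD-TIA and CONTROL-TIA was 0.030 with array weights and -0.15 to 0.079 leaving out a culture. Leaving out a culture gave, between CONTROL-TIA and CONTROL-VEH, -0.050 to 0.027 for *Grin2a*, -0.036 to 0.064 for *Grin2b*, -0.033 to 0.198 for *Grin2d* and -0.0040 to 0.134 for *Grin3a*. The log2 ratio of *Grin1* to GluN2 differed by -0.032 (weighted by length) and -0.047 (coding) between CONTROL-TIA and CONTROL-VEH and by -0.016 (coding) between OGD-TIA and OGD-VEH. Against neuron markers, *Grin1* differed by -0.00833 (CONTROL-TIA vs CONTROL-VEH, coding) and *Grin2b* by -0.031 (OGD-TIA vs CONTROL-TIA, weighted by length). With a pseudocount of 1, *Grin2a* and *Grin2d* differed by -0.0862 and -0.054 between OGD-TIA and OGD-VEH, *Grin2d* by 0.0092 between OGD-VEH and CONTROL-VEH, and *Grin3a* by 0.0056 between OGD-TIA and CONTROL-TIA (0.0028 with coding isoforms). Leaving out a culture also turned 9 differences in shares, ratios or levels against neuron markers, all with p of 0.514 or more. Read depth limits *Grin2c* and *Grin3b*.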
